A study of Mus musculus with 23 samples.

Results

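The step from haemogenic endothelium (HE) to the next stage, called HE2, was described here as it runs without the leukaemic fusion protein RUNX1-ETO. The comparison took the arrays titled as uninduced HE and uninduced HE2, 3 of each and so 6 of the 23 arrays of the series, and covered all genes on the array. The cells came from a mouse embryonic stem (ES) cell line, labelled as strain C57BL/6, that carries a human RUNX1-ETO gene under a promoter responding to doxycycline (Dox), on a background with wild-type RUNX1. Both groups carried this gene and neither received Dox. Flk1+ cells from the differentiating line were grown in blast culture and sorted on the second day into HE, which is KIT+ Tie2+ CD41-, and HE2, which is KIT+ Tie2+ CD41+. The matched 6 arrays of HE and HE2 from cultures with Dox are used at the end to ask whether a change differed when RUNX1-ETO was induced. All cells derive from the same engineered ES line, and the labels call the arrays biological replicates without saying whether they were separate differentiations. The p-values therefore measure the spread between arrays of a group, pooled over all groups of the series in 22 arrays. That spread is not the one of the HE and HE2 arrays alone.

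Haemogenic endothelium is the vessel-lining cell type from which the first blood cells of the embryo arise. During this endothelial-to-haematopoietic transition the cells lose tight contact with their neighbours, round up and start to express blood genes, a step that needs the transcription factor (TF) RUNX1. The surface protein CD41, encoded by Itga2b, is an early sign of blood commitment, while Tie2, encoded by Tek, is an endothelial receptor and KIT is the receptor for stem cell factor.

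RNA was hybridised in 1 colour to Agilent arrays, and values are log2 intensities after background correction and quantile normalization. A gene was called when it differed by at least 2-fold at an unadjusted P of at most 0.001 in limma, and adjusted P values (Benjamini-Hochberg over the 15202 genes tested) are given throughout. Each gene was read by a single probe, so that a level is compared between arrays and never between genes. The arrays measure RNA of a cell population, in which fewer cells of a type and less RNA per cell cannot be told apart.

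The sort markers were read first. Itga2b stood at 11.15, 9.49 and 11.46 on the 3 HE arrays and at 11.72, 11.19 and 12.51 on the 3 HE2 arrays. The groups overlapped, since HE array 3 lay above HE2 array 2, and the difference of 1.1 ± 0.65 (SE) did not pass the test (adjusted P = 0.351). Kit was at 12.29 to 13.29 in HE and at 12.65 to 13.32 in HE2 (difference 0.29 ± 0.30, adjusted P = 0.653). Tek ran from 10.77 to 13.81 in HE and from 9.58 to 11.31 in HE2 (difference -1.28 ± 0.72, adjusted P = 0.321), with overlapping groups. The mRNA of the CD41 gene therefore did not pass the test between populations that were sorted by its protein. Itga2b was higher in HE2 within each pair of same-numbered arrays, by 0.56, 1.70 and 1.05. Since the gene was used for the sort, it is not a result of the comparison.

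The arrays of a group were not equally far from the other group. Arrays 1 and 2 of both groups shared a slide and array 3 of both lay on another, so that slide and group were not confounded. Between 64.7 and 78.4% of spots read well above background on HE arrays, and between 64.5 and 74.4% on HE2 arrays. Among the genes that were lower in HE2, HE array 1 was the HE array nearest to HE2 for 238, HE array 3 for 87 and HE array 2 for 80. The median difference of these genes was -1.03 within replicate pair 1, -1.24 within pair 2 and -1.87 within pair 3. Among the genes that were higher in HE2 it was 1.46, 1.66 and 2.02. The third pair thus showed the wider separation for both sets. With HE array 1 left out, 336 genes were higher and 428 lower, of which 310 and 316 were among those called with all arrays. With HE2 array 3 left out the number of lower genes came to 194, and with HE array 3 left out to 258, against 304 to 376 higher genes over all such omissions.

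**Figure D1:**
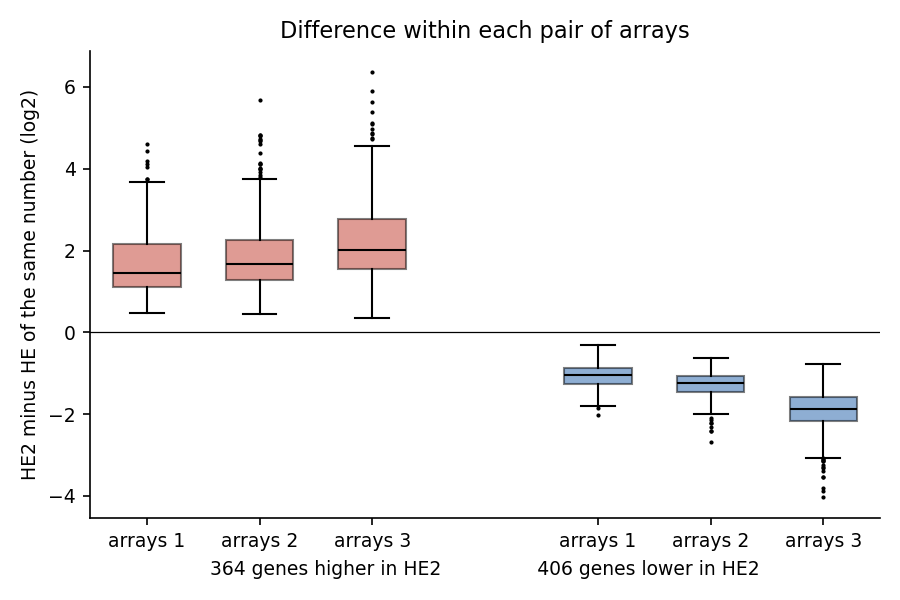
Difference between HE2 and HE within each replicate pair (log2, y axis) for the genes that were higher (red) and those that were lower (blue), as boxes over genes with a line at the median, whiskers of 1.5 times the box and dots beyond. The median was 1.46 in pair 1 and 2.02 in pair 3 for the higher genes, and -1.03 and -1.87 for the lower genes.

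In all, 364 genes were higher in HE2, which is 2.39% of those tested, and 406 were lower, or 2.67%. The rises were larger than the falls. A change of at least 4-fold was seen for 137 of the higher and 21 of the lower genes, and a change of at least 16-fold for 10 and 0. Of the higher genes, 21 were not well above background on any HE array, and 1 of the lower genes was not so on any HE2 array. The difference had the same sign within every replicate pair for 362 of the 364 and for 405 of the 406. All called genes had an adjusted P of at most 0.0153. The HE and HE2 arrays overlapped for 4 of the called genes. Separate groups thus follow almost from the call and are no further finding. At the edge of the threshold, the limma fit gave Nexmif a difference of -1.0 (unadjusted P = 0.000666), just inside, and Pdgfb one of -1.0 (unadjusted P = 0.000323), just outside. A further 211 genes passed the P threshold with a change below 2-fold. The median change over all genes tested was 0.0275. Of the 110 genes named here that passed, 24 had over 1 measured probe. All probes of these 24 had the same sign, and for 5 of them some probe changed by less than 2-fold, as given with each gene.

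**Figure D2:**
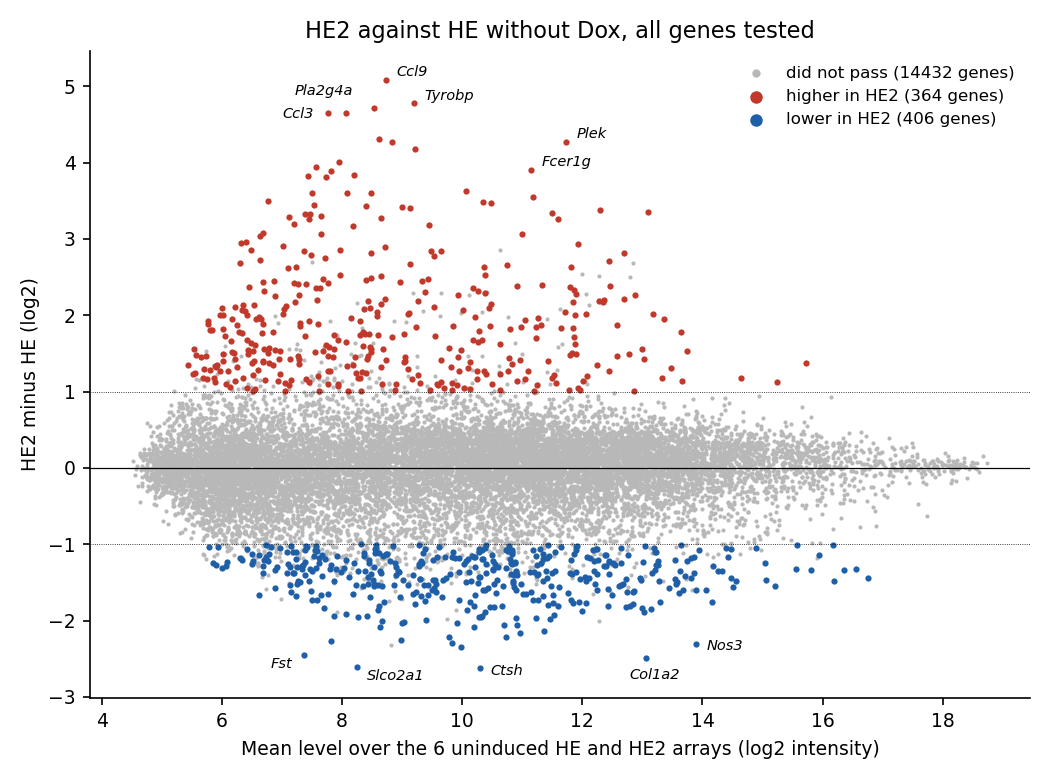
Mean log2 intensity of each gene tested over HE and HE2 arrays (x axis) against its log2 difference, HE2 minus HE (y axis), without Dox. Coloured points are the 364 genes that were higher and the 406 that were lower, and the rises reach further from 0 than the falls.

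The 12 largest rises were led by genes of myeloid blood cells. Ccl9, a chemokine of the monocyte lineage, was at 7.06, 5.58 and 5.93 on the HE arrays and at 11.24, 11.25 and 11.32 on the HE2 arrays, a rise of 5.08 ± 0.50 on the log2 scale or 33.8-fold (adjusted P = 3.25e-06). Tyrobp, the adaptor that passes on signals of activating receptors in myeloid cells, stood at 7.58, 6.71 and 6.14 in HE and at 11.32, 11.44 and 12.04 in HE2, a 27.6-fold rise (adjusted P = 1.31e-07). Pla2g4a, the cytosolic phospholipase that releases arachidonic acid, was at 6.03, 6.24 and 6.24 and then at 10.64, 11.05 and 10.98, a 26.3-fold rise (adjusted P = 2.36e-08). These genes, like the others of the 12, were chosen for groups that do not overlap, so that the separation of their arrays is no finding.

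Fcer1g, which encodes another adaptor of immune receptors, went from 9.60, 9.35 and 8.62 to 12.51, 13.19 and 13.59, or 15.0-fold (adjusted P = 2.83e-06). Plek, which encodes the protein kinase C substrate pleckstrin of platelets and leukocytes, went from 10.13, 9.64 and 9.03 to 13.72, 13.76 and 14.12, or 19.3-fold (adjusted P = 8.24e-07). Ccl3, a chemokine of activated myeloid cells, was at 5.81, 5.51 and 5.01 in HE, well above background on 2 of the 3 arrays, and at 10.25, 9.89 and 10.13 in HE2, a 25.0-fold difference (adjusted P = 1.06e-07). The remaining rises of this group were Cd52, a leukocyte surface peptide (25.2-fold), Sla, an adaptor that dampens antigen receptor signals (19.8-fold), F13a1, the catalytic chain of coagulation factor XIII (19.4-fold), the matrix gene Emilin2 (18.1-fold), Cst7, a cysteine protease inhibitor of leukocytes (16-fold), and Clec4d, a lectin receptor of myeloid cells (15.4-fold). The rise of F13a1 depended on the probe, since its measured probes gave 0.44 to 4.27 on the log2 scale.

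The 12 largest falls, chosen in the same way, were smaller. Nos3, the nitric oxide synthase of endothelium, stood at 14.60, 15.07 and 15.47 in HE and at 12.74, 13.10 and 12.38 in HE2, a fall of 4.93-fold (log2 -2.30 ± 0.41, adjusted P = 0.00115). Col1a2, a chain of type I collagen, stood at 13.11, 14.67 and 15.14 and then at 11.62, 12.46 and 11.35 (5.64-fold lower, adjusted P = 0.00195). Slco2a1, a prostaglandin transporter, stood at 8.55, 9.79 and 10.31 and then at 7.0, 7.38 and 6.44 (6.12-fold lower, adjusted P = 0.000155). HE array 1 was the lowest HE array in all 3 genes.

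The lysosomal protease gene Ctsh led by size, at 6.18-fold lower (log2 -2.63 ± 0.50, adjusted P = 0.00233). Others of these falls were genes of embryonic tissues outside the vessel wall. Foxa2, a TF of endoderm, stood at 9.88, 11.86 and 11.73 in HE and at 8.68, 9.55 and 8.20 in HE2 (5.08-fold lower, adjusted P = 0.00253). Ahsg, which encodes the liver-secreted protein fetuin, stood at 7.50, 9.56 and 9.76 and then at 6.32, 6.88 and 6.83 (4.81-fold lower, adjusted P = 0.00124). In both, HE array 1 lay between the other HE arrays and the HE2 arrays. The others were the activin inhibitor Fst (5.47-fold), the protease gene Prss12 (4.93-fold), the matrix-related gene Sparcl1 (4.77-fold), the membrane glycoprotein gene Gpm6a (4.65-fold), the muscle gene Pdlim3 (4.63-fold) and the metalloproteinase inhibitor Timp1 (4.47-fold).

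Promoters were read for the letters bound by the TF families known for this step, RUNX, ETS and GATA, of which several members were among the genes that changed. The sequences are RefSeq promoters of GRCm38.p6, from 250 bases before to 50 bases after a gene start, and 283 of the 364 higher and 285 of the 406 lower genes were matched. The windows below are the matches before the start among the 12 largest rises, the 12 largest falls and the TF genes of the blood, shared, endothelial and Hox and Meis lists that passed. Not all of these genes had a promoter in the RefSeq table used, and TF genes of other lists were not searched. Fcer1g and Runx1 also held the RUNX letters after the start. Capitals mark the match, read along the gene, to the RUNX letters TGTGGT, whose opposite strand is ACCACA.
Ccl3, chr11:83649485-83649510, minus strand, 122 bases before the start: cctgggccccTGTGGTcactgtggac
Cst7, chr2:150570217-150570242, plus strand, 188 bases before the start: atcccccgtgTGTGGTgaatggtagg
Klf1, chr8:84901839-84901864, plus strand, 133 bases before the start: aaagaagcacACCACAcacatatcgc
Prss12, chr3:123446824-123446849, plus strand, 79 bases before the start: cagacagggcTGTGGTggtgcctgtt
The first 3 of these genes rose and Prss12 fell, so that the letters occurred in promoters of both directions. In the next windows capitals mark the ETS letters CCGGAAG on the opposite strand, as CTTCCGG.
Emilin2, chr17:71311210-71311236, minus strand, 215 bases before the start: gcttgctgcaCTTCCGGaggggctggg
Fcer1g, chr1:171234405-171234431, minus strand, 72 bases before the start: caaaatggccCTTCCGGgagctgcctg
Lyl1, chr8:84701265-84701291, plus strand, 182 bases before the start: gaattgtctcCTTCCGGagccctattc
The RUNX letters on either strand were in 20.6% of the 374 promoters of higher genes, in 11.7% of the 385 of lower genes, in 13.2% of the 15221 of all genes tested and in 16.8% of all 32851 promoters of the table. The ETS letters were in 6.68% and 3.64% of the promoters of higher and lower genes, against 14.6% of those of all genes tested and 8.86% of all promoters. The GATA letters AGATAAG were in 4.01% and 2.86%, against 2.25% and 3.04%. None of the motifs contains another. The matches describe letters in these windows and do not show that a factor binds there.

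Counts in gene lists are to be read beside 2.39% higher and 2.67% lower among all genes tested. The lists were drawn up with earlier results of these data known, so that this comparison is a description and no test. A count of 1 or 2 in a list is no result about that list. Of 23 blood TF genes tested, 13 were higher in HE2, 0 were lower and 10 did not pass, with a median difference of 1.40 against 0.0275 over all genes. Ikzf1, which encodes the lymphoid and myeloid regulator Ikaros, was at 6.5, 6.34 and 6.01 in HE and at 9.59, 10.03 and 10.03 in HE2 (log2 3.60 ± 0.26, 12.1-fold, adjusted P = 1.27e-07). The size of this rise depended on the probe, with 1.17 and 3.60 on its 2 measured probes. Spi1, the gene of PU.1, which directs myeloid differentiation, was at 5.71, 5.01 and 5.68 and then at 8.60, 8.81 and 8.88 (3.29 ± 0.37, 9.81-fold, adjusted P = 1.26e-05). It was well above background on 2 of the 3 HE arrays. Runx1 was at 11.06, 11.32 and 9.89 in HE and at 12.92, 13.28 and 12.91 in HE2, which is 4.86-fold higher (2.28 ± 0.36, adjusted P = 0.000401). The HE and HE2 arrays of these genes did not overlap, as for nearly all called genes.

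Cebpb, a factor of myeloid and inflammatory genes, rose 9.59-fold and Myb, needed for definitive blood progenitors, rose 8.40-fold. The erythroid and megakaryocytic factors Gata1 (7.17-fold), Nfe2 (7.03-fold) and Gfi1b (6.18-fold) rose as well. Gata1 went from 7.91, 8.43 and 7.86 to 10.38, 11.10 and 11.25. Ikzf2, a relative of Ikzf1, rose 4.95-fold, and Bcl11a (log2 2.08), Cebpe (1.51), Klf1 (1.40) and Irf8 (1.00) passed with smaller changes. Factors of the myeloid and of the erythroid branch were thus both among the genes that rose.

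Cebpa, which drives the granulocyte branch, did not pass, with 6.02, 6.00 and 5.80 in HE and 7.08, 5.85 and 7.15 in HE2 (adjusted P = 0.29) and overlapping groups. Gfi1, a repressor that acts beside Gfi1b in switching off endothelial genes, ran from 10.43 to 11.59 in HE and from 11.03 to 11.46 in HE2 (0.34, adjusted P = 0.719), and its sign was turned within slide 1 (-0.01). The paralogues Gfi1 and Gfi1b therefore gave different values here, without a test between them. The uninduced CD41+ KIT+ Tie2- progenitors of the next stage had Ikzf1 at 10.88 and 10.90, Spi1 at 11.05 and 10.58, Gata1 at 13.02 and 13.40 and Runx1 at 14.21 and 14.19 on their 2 arrays. These were above all HE2 arrays for each of the 4 genes.

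Of 14 TF genes that endothelium and blood share, 1 was higher and 1 lower, too few for a result about the list, with a median of 0.04. Lyl1, a partner of the stem cell leukaemia factor network, went from 14.76, 14.85 and 14.44 to 15.64, 16 and 15.79 (2.18-fold higher, adjusted P = 0.00658). Mecom, a stem cell and endothelial regulator, went from 6.82, 6.73 and 7.86 to 6.07, 5.60 and 5.96 (2.40-fold lower, adjusted P = 0.00208), with -1.26 to -0.45 over its measured probes. Tal1, which specifies blood and endothelium, was at 13.55 to 14.05 in HE and 14.25 to 14.39 in HE2 (0.46, adjusted P = 0.0656). Fli1, an ETS factor of both lineages, differed by -0.86 (adjusted P = 0.00751) and stayed under 2-fold. For Lmo2, the adaptor that joins Tal1 to GATA factors, the difference was -0.06 (adjusted P = 0.942), and its sign turned to 0.04 with scaling to the 75th percentile. The call of Lyl1 was lost without HE array 3 or HE2 array 2 or 3, and that of Mecom without HE array 3.

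Of 17 endothelial TF genes, 7 were lower, 0 were higher and 10 did not pass, with a median of -1.12. Hey2, the arterial target of Notch, was at 7.77, 8.84 and 9.91 in HE and at 6.64, 7.10 and 6.93 in HE2 (3.85-fold lower, adjusted P = 0.00382). Sox7 was at 13.31, 13.50 and 14.31 and then at 11.97, 12.09 and 11.64 (3.50-fold lower, adjusted P = 0.00104). Sox17, its relative in haemogenic endothelium, was at 12.09, 12.29 and 12.63 and then at 10.67, 10.90 and 10.45 (3.17-fold lower, adjusted P = 0.00139). No array of a group crossed into the other for these genes, as for nearly all called genes.

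Foxc2, a factor of arterial and lymphatic vessels, fell 3.63-fold, Ets1 fell 2.54-fold and the venous factor Nr2f2 fell 2.02-fold. Epas1, which encodes the hypoxia factor HIF-2 alpha, fell 3.37-fold, with -1.75 to -0.33 on the log2 scale over its probes. Klf2, induced in endothelium by blood flow, differed by -1.12 and did not pass (adjusted P = 0.0873). In the later progenitors Sox7 was at 7.95 and 6.96 and Sox17 at 6.89 and 6.94 on the 2 arrays. Endothelial TF levels in HE2 thus lay between those of HE and of the later progenitors for these Sox genes. The list mean was 11.57, 11.61 and 11.90 on the HE arrays and 10.73, 10.63 and 10.38 on the HE2 arrays, and that of the blood TF genes was 9.16, 9.12 and 8.83 and then 10.41, 10.61 and 10.76.

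**Figure D3:**
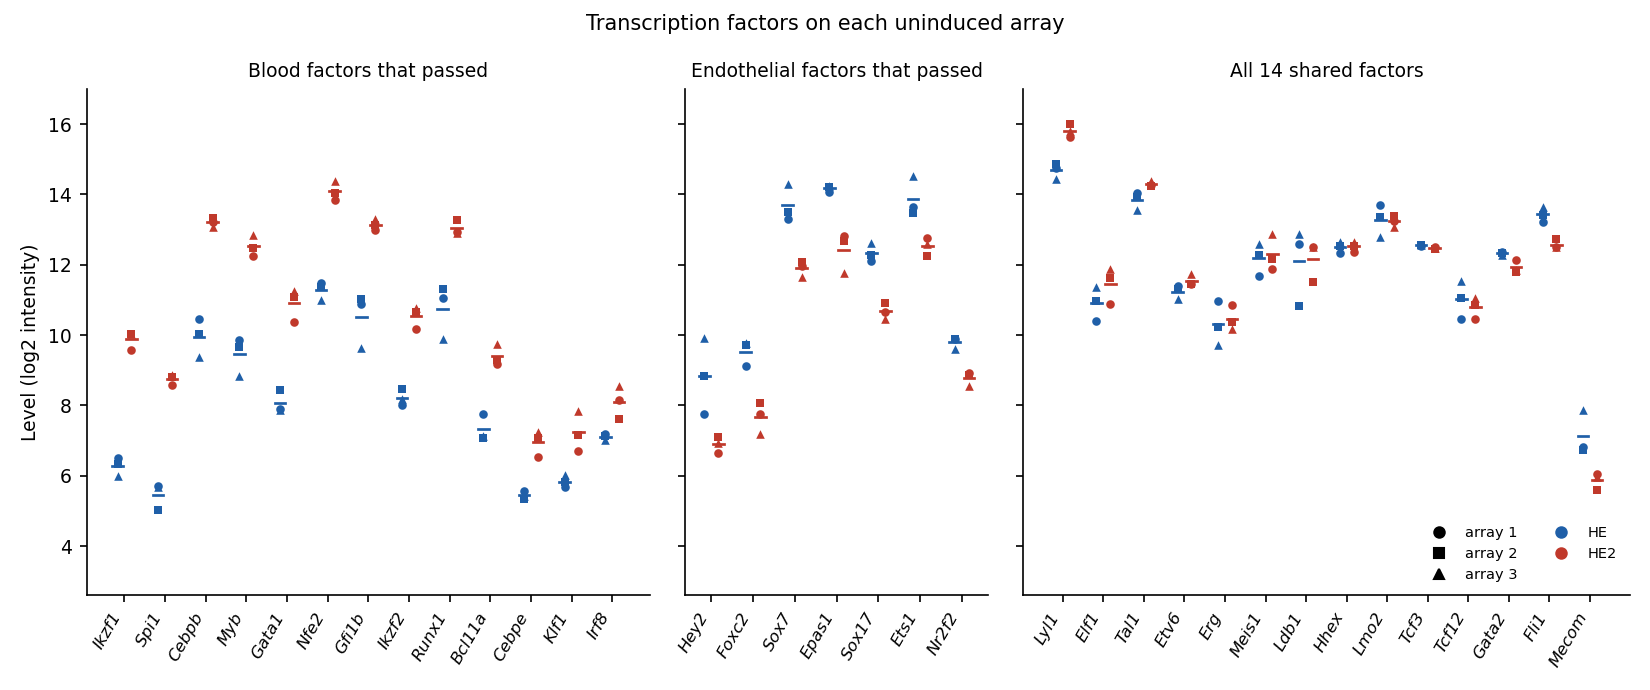
Level (log2 intensity, y axis) of TF genes (x axis) on each uninduced array, with blue for HE, red for HE2, a marker shape for each replicate number and a bar at the group mean. The HE2 points of blood factors such as Ikzf1, Spi1 and Runx1 lie above all HE points, those of endothelial factors such as Hey2, Sox7 and Sox17 lie below them, and those of the shared factor Lmo2 overlap.

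Of 26 genes expressed across leukocytes, 14 were higher in HE2 and 0 lower, with a median of 1.48. Myo1f, a myosin of immune cells, went from 6.37, 5.39 and 5.74 to 9.17, 9.51 and 10.25 (14.1-fold, adjusted P = 1.78e-07). Coro1a, which shapes the actin cortex of blood cells, went from 8.45, 8.69 and 7.62 to 11.47, 12.11 and 12.07 (12.4-fold, adjusted P = 2.17e-07). Vav1, an exchange factor of blood cells that acts on Rac, went from 9.19, 9.82 and 9.25 to 11.85, 12.16 and 12.22 (6.31-fold, adjusted P = 2.2e-06). The groups stood apart in all of these, as in nearly all called genes. Cytip, a regulator of leukocyte adhesion, was not well above background on any HE array and was at least 7.22-fold higher in HE2 (adjusted P = 4.28e-06), a bound taken against the probe's own signal in HE, which was above the lowest signal read well above background there.

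Ptprc, which encodes the leukocyte antigen CD45, had not passed at this stage. It was at 6.12, 6.40 and 5.61 in HE and at 6.84, 6.59 and 6.96 in HE2 (0.75 ± 0.34, adjusted P = 0.2), and stood at 9.24 and 8.98 in the later progenitors. Cd53, a tetraspanin of leukocytes (1.47, adjusted P = 0.0514), and Laptm5, a lysosomal protein of blood cells (1.46, adjusted P = 0.04), also did not pass the unadjusted threshold.

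Macrophage genes, and those of signalling through immune receptors, changed in part: 8 of 23 tested were higher, 0 lower, and the median was 0.19. Besides Tyrobp and Fcer1g, Lyz1, a lysozyme, went from 7.05, 6.95 and 6.02 to 10.07, 10.35 and 10.42 (12.2-fold, adjusted P = 8.24e-07). Btk, a kinase of myeloid and B cells, went from 5.74, 5.93 and 5.46 to 8.59, 8.85 and 9.68 (10.1-fold, adjusted P = 2.17e-07). The measured probes of Btk gave 1.42 and 3.33 on the log2 scale. Csf1r, the receptor for the macrophage growth factor, was at 11.25, 10.03 and 9.73 in HE and at 11.34, 10.699 and 10.78 in HE2 (0.60, adjusted P = 0.301), with overlapping groups. Tlr4, a receptor for bacterial lipid, was at -1.22 (adjusted P = 0.0231) and Mrc1, the mannose receptor, at -1.42 (adjusted P = 0.0383), and neither passed. With HE2 array 3 left out 4 of these genes were higher and with HE array 2 left out 5.

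Of the granule genes of neutrophils 3 of 8 were higher and 0 lower, with a median of 0.68. The members that did not pass were Prtn3 (1.24), Camp (0.13), Lcn2 (-0.08), Ctsg (-0.23) and Elane (-0.42). A further 3 listed genes were below the level needed for the test. Mpo, myeloperoxidase, went from 10.33, 9.92 and 9.24 to 12.82, 13.02 and 13.68 (10.2-fold, adjusted P = 1e-05), Ltf, lactoferrin, rose by 2.45 (adjusted P = 0.0008) and Ms4a3, a membrane protein of granulocyte precursors, by 2.10 (adjusted P = 0.0013). Of 5 mast cell genes tested, 1 was higher, the carboxypeptidase Cpa3 (1.87, adjusted P = 0.00103), and the list median was -0.07. Hdc was at -1.26 (adjusted P = 0.0725) and did not pass. Tpsb2 (-0.13), Cma1 (-0.07) and Prg2 (0.12) did not pass either.

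Megakaryocyte and platelet genes were higher for 8 of 20 tested and lower for 0, with a median of 1.12. Itgb3, the integrin chain that pairs with CD41 on platelets, went from 11.94, 12.13 and 10.16 to 14.52, 15.44 and 14.33 (10.2-fold, adjusted P = 0.00022). Pf4, a platelet chemokine, went from 6.37, 6.52 and 6.88 to 8.90, 9.92 and 10.47 (9.02-fold, adjusted P = 9.54e-05). HE and HE2 arrays did not overlap in these genes, as in nearly all called genes. Gp9 rose by 2.63 (adjusted P = 2.57e-05), while its partner in the platelet receptor for von Willebrand factor, Gp1ba, was at 1.15 and did not pass (adjusted P = 0.0246), but did with the replicate pairs as a block (adjusted P = 0.0106).

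Of 15 erythroid genes, 2 were higher and 1 lower, with a median of 0.53. The embryonic globin Hbb-bh1 was at 15.26, 15.09 and 14.76 in HE and at 16.14, 16.58 and 16.50 in HE2 (2.58-fold higher, adjusted P = 0.000402), and the carbonic anhydrase Car2 rose by 1.43 (adjusted P = 0.00124). The alpha globin Hba-a1 was at 1.64 with overlapping groups (adjusted P = 0.0429) and passed with the replicate pairs as a block (adjusted P = 0.00531). Add2, an adducin of the red cell membrane skeleton, was at -1.01 (adjusted P = 0.0117), a fall that was lost without HE array 1 or 3 or HE2 array 2 or 3.

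Cytokine receptors and chemokines added a second set of signalling genes. Of 16 cytokine receptor genes 3 were higher, with a median of 0.45. Il6ra, the receptor for interleukin 6, went from 8.46, 8.40 and 7.81 to 11.08, 11.07 and 11.04 (7.17-fold, adjusted P = 2.05e-06), and Csf2rb, the shared chain of the receptors for interleukin 3 and granulocyte-macrophage colony-stimulating factor, rose by 2.20 (adjusted P = 0.001). The measured probes of Csf2rb gave 1.07 and 2.20. Il1rl1, a receptor of the interleukin 1 receptor family, was at 1.6 (adjusted P = 0.0202) and did not pass. Cxcr2, a chemokine receptor of neutrophils, rose by 2.13 (adjusted P = 0.000241).

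Of 13 chemokine genes and their receptors, 5 were higher and 1 lower. Beside Ccl9 and Ccl3, Ccl6 went from 7.93, 7.0 and 7.33 to 11.21, 10.32 and 10.95 (10.6-fold, adjusted P = 0.000109) and Ccl4 from 5.02, 4.65 and 5.22 to 8.26, 7.08 and 7.60 (6.40-fold, adjusted P = 5.97e-05). Ccl9, Ccl6, Ccl3 and Ccl4 are consecutive protein-coding genes in the order of the RefSeq annotation, and all 4 rose. Cxcl1, a chemokine that attracts neutrophils, was at 8.86, 9.06 and 8.91 in HE and 7.33, 7.98 and 7.47 in HE2 (2.55-fold lower, adjusted P = 0.0033), a fall that was lost without HE2 array 1.

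Endothelial genes of the cell surface were read in separate lists. Of 18 receptor genes 4 were lower and 0 higher, with a median of -0.81. Robo4, which guards vessel integrity, was at 13.75, 13.56 and 13.34 in HE and at 12.35, 12.14 and 11.27 in HE2 (3.08-fold lower, adjusted P = 0.0038). Ramp2 went from 17.05, 17.32 and 17.30 to 16.02, 16.13 and 15.55 (2.50-fold lower, adjusted P = 0.00124) and its partner in the adrenomedullin receptor, Calcrl, fell by 1.21 (adjusted P = 0.00929). Acvrl1, a BMP9 receptor of endothelium, fell by 1.36 (adjusted P = 0.00513).

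The main receptors for vascular endothelial growth factor did not pass. Kdr, which encodes Flk1, ran from 14.28 to 15.36 in HE and from 13.61 to 14.30 in HE2 (-0.81, adjusted P = 0.102), with overlapping groups, and Flt1 from 14.33 to 14.43 and from 12.98 to 13.74 (-0.98, adjusted P = 0.0185). With HE2 array 3 left out 2 of the receptor genes were lower.

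Of 23 genes of endothelial junctions and surface, 4 were lower and 0 higher, with a median of -1.02. Stab1, a scavenger receptor of vessel lining, went from 12.26, 11.80 and 12.55 to 10.45, 10.25 and 10.02 (3.90-fold lower, adjusted P = 0.00056). Icam2 went from 15.88, 15.86 and 16.22 to 14.71, 14.40 and 14.19 (2.93-fold lower, adjusted P = 0.00103). The junction genes Tjp1 (-1.39, adjusted P = 0.0101) and Esam (-1.02, adjusted P = 0.00875) were lower too, and Tjp1 did not pass with the replicate pairs as a block (adjusted P = 0.0139). With HE array 3 or HE2 array 3 left out, 2 of the list were lower.

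Defining endothelial genes remained readable in HE2. Cdh5, the cadherin of endothelial junctions, was at 14.92, 14.95 and 15.13 in HE and at 14.19, 14.21 and 13.93 in HE2 (1.86-fold lower, adjusted P = 0.031, not called). Pecam1, another junction protein, ran from 9.27 to 12.49 in HE and from 8.37 to 10.57 in HE2 (-1.09 ± 0.72, adjusted P = 0.42), with overlapping groups. Egfl7, an endothelial matrix factor, was at 17.75 to 17.96 and then at 17.16 to 17.55 (-0.48, adjusted P = 0.0788), and Cd34, shared by endothelium and blood progenitors, differed by 0.94 (adjusted P = 0.00797) and stayed under 2-fold. All of these were well above background on the 3 HE2 arrays, so that endothelial RNA was present in HE2.

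Genes of coagulation and vascular tone were lower for 4 of 15 and higher for 1, with a median of -0.77. Besides Nos3, Edn1, the vasoconstrictor endothelin, went from 11.82, 12.27 and 11.75 to 10.10, 10.54 and 9.03 (4.16-fold lower, adjusted P = 0.00148). Ece1, the enzyme that activates endothelin, fell by 1.54 (adjusted P = 0.000511) and Thbd, the thrombin receptor thrombomodulin, by 1.48 (adjusted P = 0.00891). Ptgs2, the inducible cyclooxygenase that acts on the arachidonic acid released by Pla2g4a, was higher, from 5.78, 6.48 and 5.58 to 8.99, 9.30 and 8.07 (7.16-fold, adjusted P = 0.00151). Plat, tissue plasminogen activator, was at -2.32 ± 0.64 and did not pass (adjusted P = 0.0251), and Vwf was at -0.03 (adjusted P = 0.974), a sign that was 0.01 with scaling to the 75th percentile. In the later progenitors Nos3 stood at 8.49 and 8.07, below all HE2 arrays.

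Notch, arterial and venous genes were lower for 7 of 18 and higher for 0, with a median of -1.09. Besides Hey2 and Nr2f2, Efnb2, the arterial ligand of Eph receptors, went from 11.43, 11.99 and 12.96 to 10.36, 10.36 and 10.47 (3.31-fold lower, adjusted P = 0.00372). Notch4, the endothelial Notch receptor, went from 12.24, 12.02 and 12.50 to 10.90, 10.76 and 10.48 (2.91-fold lower, adjusted P = 0.00174). Unc5b (-1.62, adjusted P = 0.00756), the gap junction gene Gja4 (-1.38, adjusted P = 0.00149) and the Notch ligand Dll1 (-1.17, adjusted P = 0.0043) were lower too. The arterial ligand Dll4 was at -1.36 and did not pass (adjusted P = 0.055). With HE array 3 left out, 3 genes of the list were lower.

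Some matrix and adhesion genes were lower in HE2 and most did not pass. Of 25 matrix genes tested, 7 were lower and 0 higher, with a median of -0.96, among them Fbn1 (fibrillin, -1.75, adjusted P = 0.000811) and the basement membrane genes Nid2 (-1.59, adjusted P = 0.00221) and Nid1 (-1.57, adjusted P = 0.0024). The list mean was 11.30 to 11.79 on the HE arrays and 10.39 to 10.74 on the HE2 arrays. Of 14 integrin genes 2 were lower and 1 higher. Itga4, whose protein helps blood progenitors bind fibronectin and endothelium, went from 9.03, 8.48 and 7.92 to 10.34, 10.48 and 10.95 (4.32-fold, adjusted P = 0.000111), although its measured probes ranged from 0.55 to 2.11, and Itga1, a collagen receptor chain, fell by 1.46 (adjusted P = 0.0041), with -0.77 on its other probe. Itgb4, the chain of hemidesmosomes, was at -1.3 (adjusted P = 0.0103). With any 1 of the 6 arrays left out, 0 or 1 of the integrin genes were lower, and with HE2 array 3 left out 4 of the matrix genes were.

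Focal adhesion genes, listed with partners and targets of the mechanical regulator YAP, were lower for 5 of 32 and higher for 0, with a median of -0.55. These were Cald1 (-1.52, adjusted P = 0.00125), Amotl1 (-1.43, adjusted P = 0.00674), Parva (-1.38, adjusted P = 0.0085), Tead1, the DNA-binding partner of YAP (-1.37, adjusted P = 0.00938), and Fermt2 (-1.04). Yap1 itself was at -1.03 and did not pass (adjusted P = 0.0226). The YAP targets Ccn1 (-1.23, adjusted P = 0.0195), Ccn2 (-1.42, adjusted P = 0.175) and Ankrd1 (-1.29, adjusted P = 0.236) did not pass either. With HE array 2 or HE2 array 3 left out, 1 gene was lower, and with HE array 3 or HE2 array 1 left out 3 were.

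Genes of other embryonic tissues were also among those that fell. Of 24 cardiac and smooth muscle genes tested, 4 were lower and 0 higher, with a median of -0.66, and their mean level was 9.65 to 10.18 on the HE arrays and 8.69 to 9.46 on the HE2 arrays. Of these 24 genes, 22 were well above background in each group. Hand2 went from 11.56, 12.63 and 13.29 to 10.29, 11.08 and 10.6999 (-1.80 ± 0.39, adjusted P = 0.00551) and Gata4 from 12.74, 13.61 and 12.48 to 11.05, 12.03 and 10.42 (-1.77 ± 0.41, adjusted P = 0.00783), both being TF genes of the early heart. Myh7, a cardiac myosin chain (-1.55, adjusted P = 0.0109), and Gata6 (-1.47, adjusted P = 0.00113) were lower, while the smooth muscle genes Acta2 (-1.07, adjusted P = 0.139) and Tagln (-1.19, adjusted P = 0.137) did not pass. With HE array 2 left out 1 of these genes was lower, with HE2 array 1 or 3 left out 2, and in a fit of the HE and HE2 arrays alone 0. The part of such cells in the falls of matrix and adhesion genes was not tested.

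Epithelial genes were lower for 1 of 9, the desmosome gene Pkp2 (-1.18, adjusted P = 0.0131), with a list mean of 9.12 to 9.53 in HE and 8.54 to 9.08 in HE2. Of 3 genes of endoderm and pluripotent cells, Foxa2 was lower and Afp, alpha-fetoprotein, was higher by 1.1 (adjusted P = 0.00268). Among TF genes of epithelial-to-mesenchymal change, Zeb1 was lower (-1.08, adjusted P = 0.00306), the only one of 6 to pass, and 2 of them were lower with the replicate pairs as a block. These small counts moved with the arrays: Pkp2 was lost without HE array 2 or 3 or HE2 array 1 or 3, and the calls of Afp and Zeb1 without HE array 3.

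Genes of general cell growth did not pass the test. Of 30 cell cycle genes, limma called 0 in either direction, with 5 higher and 1 lower at an unadjusted P under 0.05, a median of 0.24 and 23 values above 0. Mki67, a marker of cycling cells, was at 0.40 (adjusted P = 0.145). Of 17 ribosome biogenesis genes limma called 0, with 3 higher at an unadjusted P under 0.05, and all 17 values lay above 0, with a median of 0.34. Of 16 interferon and antigen presentation genes it called 0, with 5 higher and 1 lower at that level and a median of 0.18. Of 21 genes of glycolysis and hypoxia 1 was lower, Vegfa, the vascular growth factor (-1.45 ± 0.21, adjusted P = 0.000187), and the list median was 0.01.

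In both signalling lists 1 gene passed, beside 2.67% lower and 2.39% higher among all genes tested, so that these counts are no result about the pathways. Of 18 genes of the TGF-beta and BMP pathway 1 was lower, the ligand Bmp6, from 11.55, 11.69 and 11.93 to 10.03, 9.77 and 9.18 (4.18-fold, adjusted P = 0.000124). Of 19 immediate early genes and feedback regulators of the ERK pathway 1 was higher, the receptor kinase inhibitor Spry1, from 9.64, 8.77 and 7.98 to 11.13, 11.26 and 10.81 (4.81-fold, adjusted P = 7.54e-05). Of 9 homeobox genes of the Hox and Meis families 3 were lower, namely Meis2, from 9.79, 10.55 and 10.86 to 8.25, 8.80 and 8.16 (-2.0 ± 0.35, adjusted P = 0.00102), Hoxb2 (-1.20, adjusted P = 0.0102) and Hoxb6 (-1.11, adjusted P = 0.0138). Without HE array 1 or 2, or without HE2 array 1 or 3, 1 gene of the Hox and Meis list was lower, and without HE array 1, 4 genes of the TGF-beta and BMP list were.

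**Figure D4:**
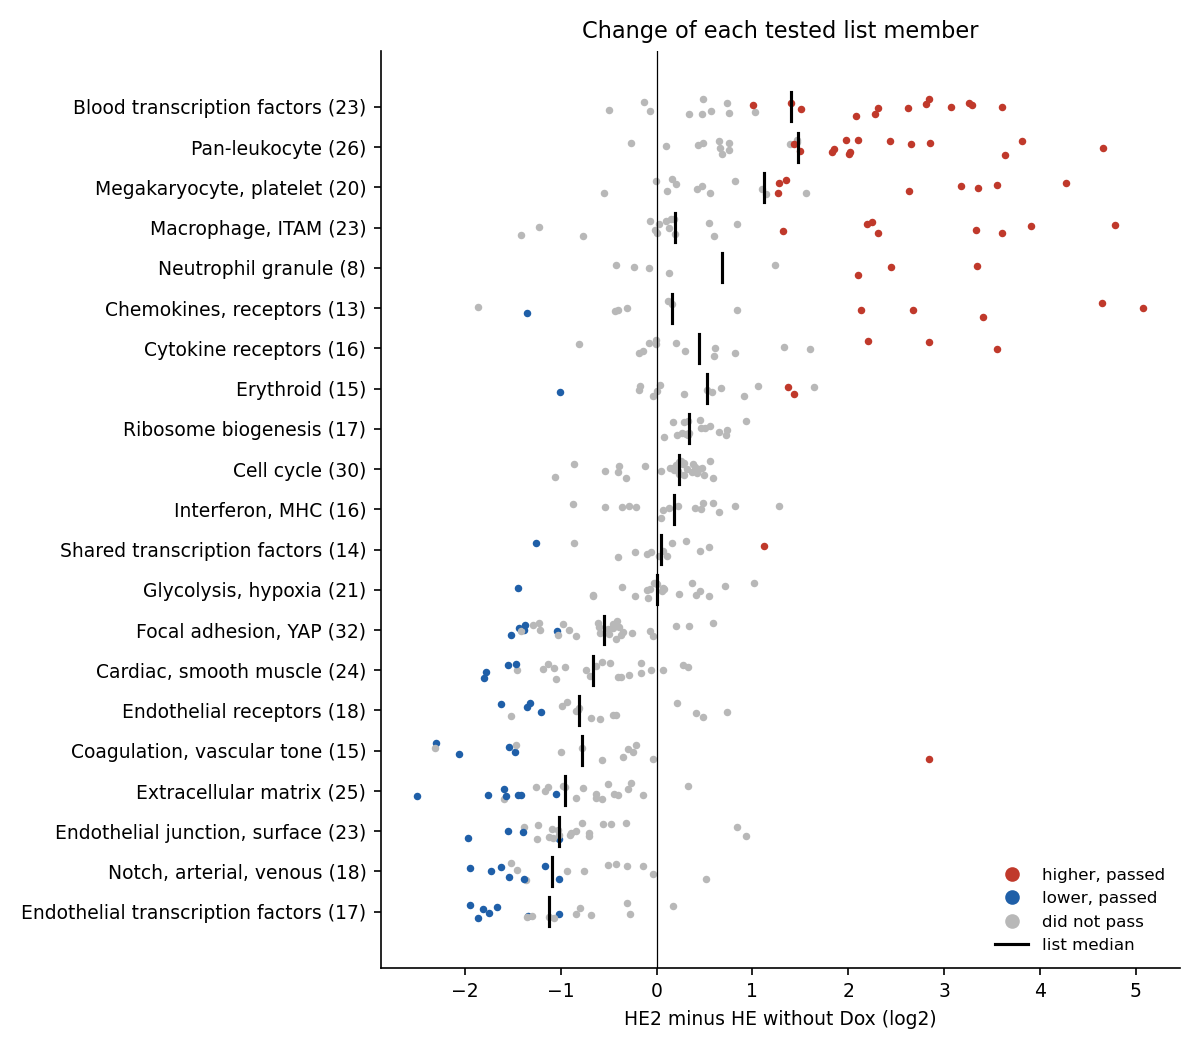
Log2 difference, HE2 minus HE without Dox (x axis), of every tested member of each gene list (rows), red and blue points being members that passed as higher or lower, grey points members that did not, and the black line the list median. The blood TF and leukocyte lists lie to the right, the endothelial, Notch and matrix lists to the left, and the cell cycle and ribosome lists near 0.

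When RUNX1-ETO was induced, 247 genes were higher in HE2 than in HE, or 1.62% of those tested, and 224 were lower, or 1.47%. The change differed between the conditions, by the interaction term, for 203 genes or 1.34%. Of the blood TF list 10 were higher with Dox, against 13 without, and 3 differed by the interaction. Spi1 changed by 0.86 with Dox against 3.29 without (interaction -2.44 ± 0.52, adjusted P = 0.0297), and Ikzf1 by 1.35 against 3.60 (interaction -2.26 ± 0.37, adjusted P = 0.00862). The myeloid adaptor Tyrobp changed by 1.72 with Dox against 4.79 (interaction -3.07 ± 0.50, adjusted P = 0.00862). These genes were named for large changes without Dox, which also enter the interaction, so that they lean towards a smaller change with Dox.

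The chemokine list had 6 genes with a different change. Ccl6 changed by -0.31 with Dox against 3.41 without (interaction -3.72 ± 0.65, adjusted P = 0.0113), and Cxcl1 by 0.66 against -1.35 (interaction 2.01 ± 0.39, adjusted P = 0.0181). Of the platelet list 13 genes were higher with Dox against 8 without, a difference in number that was not tested. Itgb3 changed by 2.97 with Dox (interaction -0.38 ± 0.69, adjusted P = 0.989), and Mpo, of the granule list, changed by 3.00 (interaction -0.34 ± 0.51, adjusted P = 0.989), values that do not show that the conditions acted alike.

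Of the endothelial TF list 1 gene was lower with Dox, Foxc2, against 7 without, a difference in number that was not tested. The list median was 0.00 with Dox and -1.12 without, and 2 genes met the interaction threshold. Sox17 changed by 0.28 with Dox against -1.67 (interaction 1.95 ± 0.43, adjusted P = 0.0342) and Nr2f2 by 0.24 against -1.02 (interaction 1.26 ± 0.29, adjusted P = 0.0474). Of the Notch list 3 genes met the interaction threshold, among them Gja4, which changed by 0.62 with Dox against -1.38 (interaction 2.00 ± 0.36, adjusted P = 0.0118). Vwf, which did not pass without Dox, was 1.91 higher in HE2 than in HE with Dox (adjusted P = 0.000397, interaction 1.94 ± 0.40, adjusted P = 0.0246). Its mean level was 10.15 in HE and 10.12 in HE2 without Dox, against 7.29 in HE and 9.20 in HE2 with Dox. The HE2 mean with Dox thus lay below the means of both uninduced groups.

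**Figure D5:**
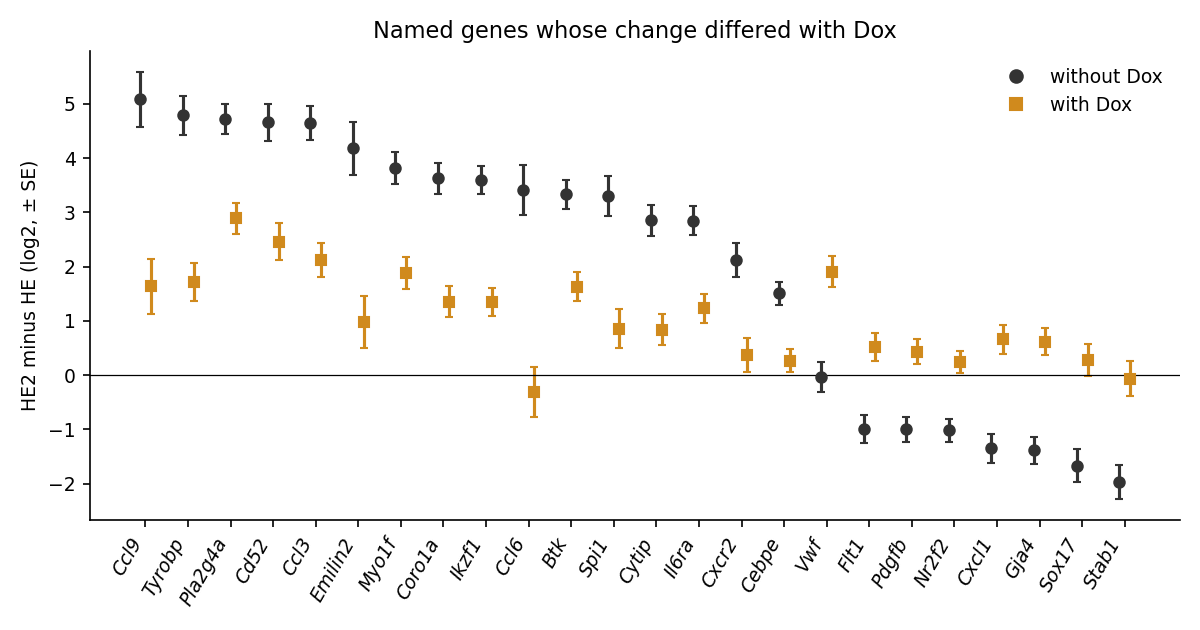
Log2 difference, HE2 minus HE (y axis, with the SE as bars), without Dox (circles) and with Dox (squares), for the 24 genes named here that met the interaction threshold (x axis). The difference of each condition comes from its own 6 arrays, and the SE from a spread pooled over the 22 arrays of the fit. The squares lie above the circles for Cxcl1, Stab1, Sox17, Nr2f2, Gja4, Vwf, Flt1 and Pdgfb, and below them for the others.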

How the data were processed

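Total RNA from sorted cells was hybridised to Agilent 1-colour mouse arrays. The authors deposited the scanner intensity of each spot and of its local background, without normalization between arrays; the submitters' processing notes name Agilent Feature Extraction 10.7.1.1 and limma, and the file headers Feature Extraction 10.7.3.1. The authors also deposited background-corrected and quantile-normalized log2 values for each array, used here as an alternative. No columns of comparisons by the authors were used.

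From the median spot intensities, background was corrected with normexp (offset 16) and 3671 control spots and outlier spots were left out, which left 75 genes with a missing array among the 6. All 23 arrays were quantile normalized, replicate spots averaged, and probes named by accession from RefSeq (GRCm38.p6), which matched 26582 of 55681 probes to 20145 genes. The probe of highest mean stood for a gene, and genes that reached 6.5 on any array entered the test (15202 genes). Group means, and for each gene a spread shared by all groups, were estimated from 22 arrays, with 14 residual degrees of freedom. The fit used limma 3.58.1 (lmFit, eBayes) under R 4.3.3. The uninduced progenitor array titled a technical replicate was normalized and left out of the fit. A call required a 2-fold change and an unadjusted P no higher than 0.001; adjusted P follows Benjamini and Hochberg. The fit was tested on simulated data. The precision is limited by the number of arrays.

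Same-numbered uninduced arrays of HE and HE2 deviated together from their group means (correlations 0.394, 0.795 and 0.608 across genes), so the numbers of the labels were taken to pair them in the alternative with a block. The genes named are the sort markers, the 12 largest rises and 12 largest falls with groups that do not overlap and a probe well above background in the higher group, up to 4 members past the threshold in each direction of each gene list, and further members to account for those that did not pass. The members and lists were chosen with earlier results of these data known. Alternatives were other background corrections, scalings, filters, probe rules, thresholds and blocks, values within a slide and each array left out.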

Additional observations from a re-analysis of the deposited data

Results flagged for a closer look

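By the interaction term of the limma fit, the change from HE to HE2 differed with Dox for 24 of the 142 genes named. Over all genes tested the share was 1.34%. Many named genes were chosen for a large change without Dox, which also enters the interaction. They therefore lean towards a smaller change with Dox, and the count is no result about them. Values of the 24 genes are given on the log2 scale as the change without Dox, the change with Dox and the interaction. Among the 12 largest rises these were Ccl9 (5.08, 1.64 and -3.44, adjusted P = 0.0246), Tyrobp (4.79, 1.72 and -3.07, adjusted P = 0.00862), Pla2g4a (4.72, 2.89 and -1.83, adjusted P = 0.0342), Cd52 (4.65, 2.46 and -2.20, adjusted P = 0.0342), Ccl3 (4.65, 2.12 and -2.52, adjusted P = 0.0118) and Emilin2 (4.18, 0.98 and -3.20, adjusted P = 0.0324).

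Of the leukocyte and receptor genes these were Myo1f (3.81, 1.88 and -1.93, adjusted P = 0.0295), Coro1a (3.63, 1.36 and -2.28, adjusted P = 0.0118), Cytip (2.85, 0.84 and -2.01, adjusted P = 0.0243), Btk (3.33, 1.63 and -1.70, adjusted P = 0.0332) and Il6ra (2.84, 1.23 and -1.61, adjusted P = 0.0531). Of the TF genes they were Ikzf1 (3.60, 1.35 and -2.26, adjusted P = 0.00862) and Spi1 (3.29, 0.86 and -2.44, adjusted P = 0.0297). Ccl6 (3.41, -0.31 and -3.72, adjusted P = 0.0113), Cxcl1 (-1.35, 0.66 and 2.01, adjusted P = 0.0181) and Stab1 (-1.96, -0.06 and 1.90, adjusted P = 0.0531) had little change with Dox or one of opposite sign.

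The others were Cebpe (1.51, 0.27 and -1.24, adjusted P = 0.0531), Cxcr2 (2.13, 0.36 and -1.76, adjusted P = 0.0693), Sox17 (-1.67, 0.28 and 1.95, adjusted P = 0.0342), Nr2f2 (-1.02, 0.24 and 1.26, adjusted P = 0.0474), Gja4 (-1.38, 0.62 and 2.00, adjusted P = 0.0118), Flt1 (-0.98, 0.52 and 1.499, adjusted P = 0.0571), Pdgfb (-1.0, 0.43 and 1.43, adjusted P = 0.0380) and Vwf (-0.03, 1.91 and 1.94, adjusted P = 0.0246). All 24 passed the unadjusted threshold. With some array left out it was lost for Il6ra, Stab1, Cebpe, Cxcr2, Nr2f2, Flt1 and Pdgfb, and Btk and Pdgfb lost it when the probes of a gene were averaged.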

How the results depend on the processing

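The counts of 364 higher, 406 lower and 203 interaction genes stayed within 1.5-fold under other background corrections, scalings, filters, probe rules, a trended prior and blocks for slide or scan date. With the replicate number as a block, which pairs the arrays, they were 379, 440 and 232, of which 358, 397 and 175 were shared, and among the named genes the block changed the calls of Tjp1, Nexmif, Gp1ba and Hba-a1 and the interaction calls of Cebpe and Cxcr2, and no other call. An adjusted P of at most 0.05 gave 133 interaction genes, and one of at most 0.001 gave 220 higher, 59 lower and 0 interaction genes in limma, against 203 at the unadjusted threshold. A 2-fold change alone gave 696 lower and 928 interaction genes. A fit of the compared groups alone gave 181 lower and 126 interaction genes, with 61.1% of the called genes higher against 47.3%. By 2-fold change with no test, slide 1, with 1 array per induced group, gave 1102 interaction genes. By the same reading slide 2, with 1 array per uninduced group, gave 791 higher, 1429 lower and 2474 interaction genes. With each array left out, the counts ranged from 304 to 376 higher, 194 to 428 lower and 140 to 206 interaction genes; the lowest numbers of lower genes came without HE2 array 3 (194) and HE array 3 (258). The causes were not tested. Of the named genes, 46 of 50 that rose and 27 of 60 that fell passed in all 6 omissions. With scaling to the 75th percentile, Lmo2 was at 0.044 and Vwf at 0.0081. Within slide 1 Gfi1 was at -0.00902, and within slide 2 Lmo2 was at 0.29 and Vwf at 0.089. With arrays left out, Lmo2 ranged from -0.30 to 0.15 and Vwf from -0.16 to 0.036. No setting moved the median of all genes by over 0.1. Levels near background limit the rises of genes such as Cytip and Spi1.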
